A study of Homo sapiens with 2 samples.

Results

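The genes that encode the T-cell coreceptors CD4, CD8A and CD8B, together with ZBTB7B, were examined for accessible chromatin in 2 human leukaemia cell lines. The assay was ATAC-seq: the enzyme Tn5 cuts open DNA and tags the ends for sequencing. Jurkat and RPMI-8402 are established lines of T-cell acute lymphoblastic leukaemia (T-ALL), grown in the same serum-supplemented medium and, as far as the labels say, not treated. Each line had 1 library, so no value has a replicate error, no difference between lines was tested, and intervals cover counting error only. Members were the peaks with a summit in any of 3 windows on hg19: 6850000 to 6950000 of chromosome 12 around CD4, 86980000 to 87120000 of chromosome 2 around CD8A and CD8B, and 154970000 to 155000000 of chromosome 1 around ZBTB7B. The windows held 8 of the 25189 Jurkat peaks and 8 of the 24603 RPMI-8402 peaks, 16 of 49792 in all, at 11 distinct regions. Whether T-lineage marker loci were open was not analysed here, because it needs hg19 positions of those genes.

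CD4 and CD8 are surface proteins that bind major histocompatibility complex molecules beside the T-cell receptor and bring the kinase LCK to it. CD8 is a dimer, either of 2 alpha chains, encoded by CD8A, or of an alpha and a beta chain, the latter encoded by CD8B. Developing thymocytes carry neither coreceptor, then both, and then keep one of them. ZBTB7B encodes ThPOK, the zinc-finger factor that sets the CD4 helper fate and represses CD8 lineage genes, while RUNX3 supports the CD8 fate. CD4 is held off by a silencer in its first intron that RUNX factors bind, and in mice a series of enhancers in the Cd8 gene cluster acts at successive stages. Jurkat cells are widely used as a model of CD4-bearing T cells.

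In both lines a peak covered the start of CD8A, and it is shown here as sequence because it was the only peak of either line over the start of a coreceptor gene. Of the 4 genes, 2 were found in the RefSeq promoter table (GRCh38.p14), with 4 promoter windows for CD8A and 2 overlapping ones for ZBTB7B. CD4 and CD8B are named only. Each window runs from 250 bases before a transcript start to 50 after it. The CD8A start at the outer end of the gene is CD8A promoter 1, at chr2:86808347-86808646 on the minus strand of GRCh38.p14. The next start, 354 bp inside the gene, is CD8A promoter 2, at chr2:86807993-86808292 on the same strand. Both are written 5′ to 3′ along the gene, and capitals mark matches on either strand to the motifs listed after them.
CD8A promoter 1: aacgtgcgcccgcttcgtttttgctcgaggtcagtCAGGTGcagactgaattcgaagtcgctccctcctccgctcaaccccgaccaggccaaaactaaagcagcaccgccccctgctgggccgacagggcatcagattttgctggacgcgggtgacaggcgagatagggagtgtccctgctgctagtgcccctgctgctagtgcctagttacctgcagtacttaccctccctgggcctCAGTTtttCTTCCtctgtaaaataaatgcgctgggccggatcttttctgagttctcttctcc
CD8A promoter 2: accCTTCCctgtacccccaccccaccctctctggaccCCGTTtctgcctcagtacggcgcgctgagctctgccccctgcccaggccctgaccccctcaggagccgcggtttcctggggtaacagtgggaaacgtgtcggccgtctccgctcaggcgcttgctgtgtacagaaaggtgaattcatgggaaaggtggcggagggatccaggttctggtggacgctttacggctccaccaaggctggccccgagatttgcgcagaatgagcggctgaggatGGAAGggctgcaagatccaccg

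CD8A spans 23792 bp in both hg19 and GRCh38.p14, so distances from its start were carried over, on the assumption that the bases between are the same. On that reading the peak of each line held all 300 bases of both windows. The Jurkat summit lay 82 bp and the RPMI-8402 summit 227 bp after the start of promoter 2. The other CD8A windows in the table belong to transcript starts 16716 and 17483 bp inside the gene, and neither line had a peak over those windows. The motifs searched were TGTGGT (RUNX core), GGAAG (ETS core), AGATAA (core of GATA factors), CAGCTG (first E-box) and CAGGTG (second E-box), both bound by E proteins, CTTTGA (TCF/LEF core), and AACTG and AACGG (MYB cores). Promoter 1 held CAGGTG, which is in 20.6% of the 35116 promoter windows of the table, AACTG (in 39.7%) and GGAAG (in 71.9%). Promoter 2 held GGAAG at 2 places and AACGG (in 19.7%). The RUNX core, the GATA core, the first E-box and the TCF/LEF core, found in 13.1%, 10.3%, 17.9% and 12.9% of the windows, were in neither. Such matches are short, and describe letters rather than binding.

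The value followed below is the summit pileup, a count of fragments over a peak's highest base, solved from the authors' fold enrichment and p-value. At CD8A the Jurkat peak ran from 87034623 to 87035898 of chromosome 2, where 48 fragments were piled up (95% Poisson interval 35.4 to 63.6). The RPMI-8402 peak ran from 87034704 to 87035912, with a pileup of 40 (28.6 to 54.5). The intervals overlap, and both peaks are of middling strength and broad. Ranked by −log10 q, 57.3% of the Jurkat list and 54.5% of the RPMI-8402 list were weaker. Of the peaks of each list, 95.7% and 90.7% were narrower than these peaks of 1276 and 1209 bp. They began 379 and 393 bp before the start of CD8A and reached 896 and 815 bp into the gene. The authors' deposited folds over background were nearly equal, 7.91 in Jurkat against 7.92 in RPMI-8402. The pileup ratio of RPMI-8402 to Jurkat, centred on the median of all 16494 one-to-one pairs of overlapping peaks, was 0.938 (95% exact interval 0.600 to 1.46). The outermost CD8A start was thus accessible in both lines, while the starts 16716 and 17483 bp inside the gene had no peak over them. The interval of the ratio, which covers counting error only, held 1, and no difference between the lines was tested.

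The strongest peak of these loci that was called in 1 line only lay in CD8B. Jurkat had a peak inside CD8B, at 87052282 to 87053643 of chromosome 2, where the pileup reached 77 (60.8 to 96.2) and the deposited fold 7.55. RPMI-8402 had no peak that overlapped it, and its nearest peak was the one at CD8A, 16369 bp away. The Jurkat summit lay 17.0 kb before the start of CD8A and 36.5 kb inside CD8B, whose transcription runs towards CD8A. Whether it falls in an exon or an intron was not analysed here. This was the widest of the 16 peaks, at 1362 bp, and wider than 97.0% of the Jurkat list. Its deposited fold was just below the list's median of 7.76, and 67.3% of the list had a lower −log10 q. Among the 8200 Jurkat peaks with no RPMI-8402 partner, whose median pileup was 19, 98.3% had a lower pileup. Counting the peak itself, 136 of those 8200 were at least as high, and 6 were both at least as high and at least as wide.

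The absence of this peak in RPMI-8402 can be bounded only loosely. Against the background under the Jurkat peak, 9.33 fragments per base, a pileup of 25 would have reached the lowest −log10 p of the RPMI-8402 list. The RPMI-8402 background at this place is not in the list. CD8B also has a close copy, CD8B2, elsewhere on chromosome 2 in the RefSeq table, and how reads matching both genes were placed is not given in the sources used here. Surrounding pairs were centred near 0. The 50 pairs within 5 Mb of the window had a median log2 ratio, centred in the same way, of 0.04 (quartiles −0.22 and 0.40).

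No peak covered the start of CD8B in either line. The nearest peak edge was 35404 bp away in Jurkat and 53135 bp in RPMI-8402. Beyond the CD8B peak the Jurkat list was empty for 249 kb, up to 87303021, and 88.9% of the gaps between neighbouring Jurkat peaks were shorter. In RPMI-8402 the empty stretch ran from the CD8A peak for 267 kb, and 89.3% of its gaps were shorter. In the RefSeq order RGPD1 follows CD8B, and RGPD3 comes before the copy CD8B2. Whether reads could be placed uniquely in these empty stretches was not analysed. On the other side of CD8A, both lists were empty for 86.7 kb (Jurkat) and 86.5 kb (RPMI-8402). The CD8 window thus held 1.43 Jurkat and 0.714 RPMI-8402 peaks per 100 kb, and the 5 Mb on either side held 0.73 in each line. These rates divide by the full length, and what part of it reads could be placed in was not analysed. The nearest peaks outside the window were shared and stronger, with pileups of 158 and 161 in Jurkat and 147 and 159 in RPMI-8402.

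**Figure D1:**
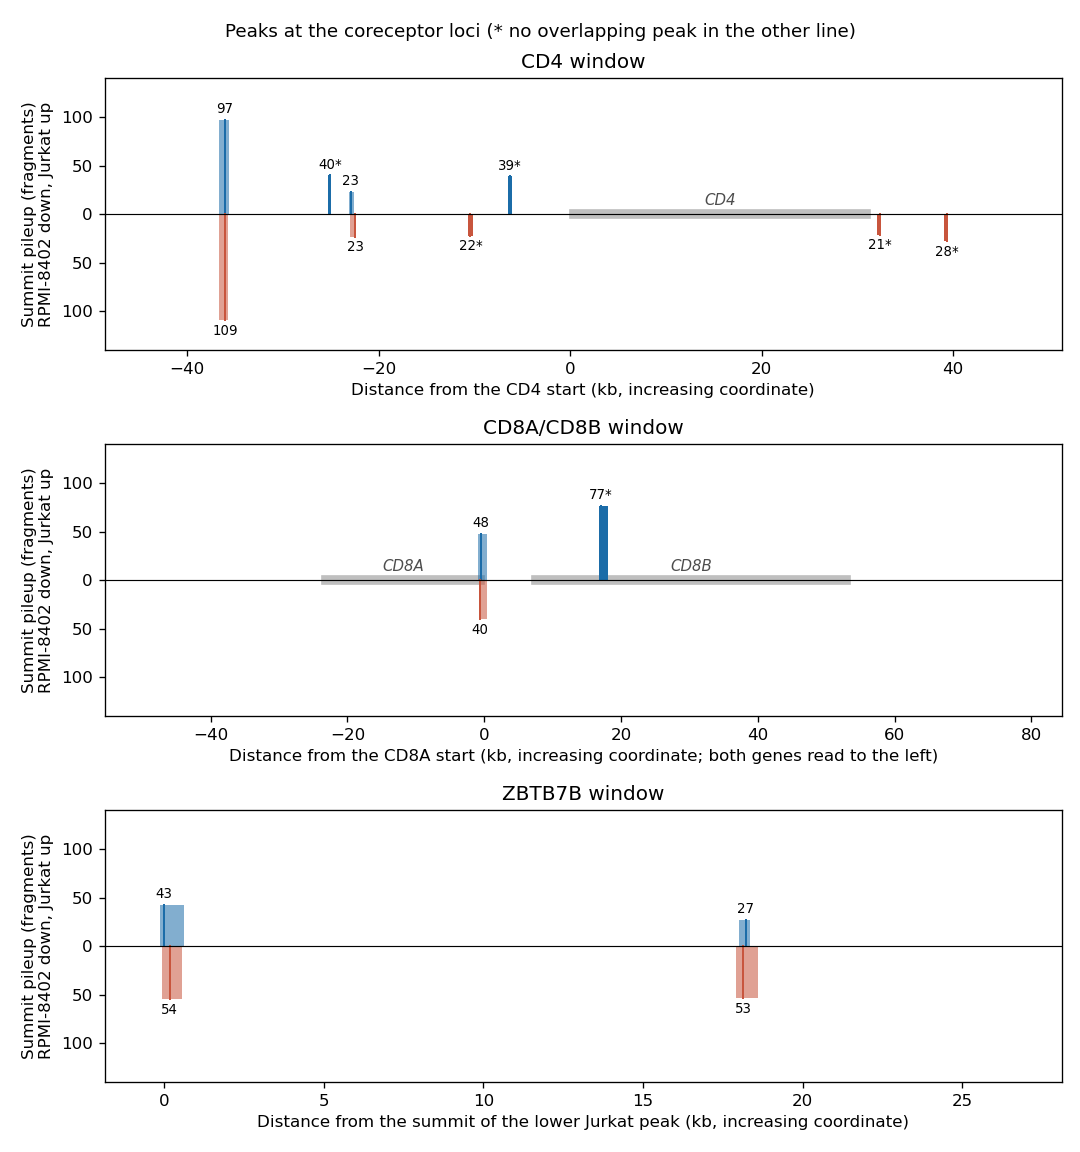
Summit pileup (fragments, Jurkat upwards and RPMI-8402 downwards) of every peak in the 3 windows against distance in kb from the CD4 start, the CD8A start or the lower Jurkat summit of the ZBTB7B window. Bars have the width of the peak, grey boxes are genes, and an asterisk marks a peak with no overlapping peak in the other line, such as the Jurkat peak of 77 in CD8B. The CD4 gene holds no peak in either line.

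CD4 had no peak in its 31339 bp, from 6898638 to 6929976 of chromosome 12, in either line, and none at its start. In Jurkat the peak-free stretch around the gene was 67.9 kb long, from 6892603 to 6960516. In RPMI-8402 it was 42.2 kb long, from 6888501 to 6930688. Such stretches are common, since 60.9% of Jurkat gaps and 43.4% of RPMI-8402 gaps were shorter, and the median gap was 46037 and 53075 bp. The first intron, where the silencer lies, was therefore without a called peak in both lines. At the lowest background of each list, 1.59 and 1.96 fragments per base, 9 fragments in Jurkat and 10 in RPMI-8402 were enough for a peak. More is needed where the background is higher, and at the backgrounds measured under the peaks of the CD4 window the requirement was 15 to 23 fragments. Those peaks lie outside the gene and the background within CD4 is not in the lists. The level below which accessibility there would go uncalled is therefore not known.

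Several peaks around CD4 were called in 1 line only, and no difference between the lines was tested. The one nearest to the start was seen in Jurkat only, at 6892098 to 6892603, with a pileup of 39 (27.7 to 53.3). Its summit lay 6.28 kb before CD4. The pileup was above that of 88.9% of Jurkat-only peaks, and 16 fragments against the same background would have been called in RPMI-8402. The nearest RPMI-8402 peak, 3596 bp further from the gene at 6887973 to 6888501, was weaker, with a pileup of 22 (13.8 to 33.3) and its summit 10.4 kb before the start. It had no Jurkat partner. Jurkat needed 15 fragments for a call against that background, a count within the interval of this peak. The stretch just before CD4 thus held 1 called peak per line at different places.

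A second Jurkat-only peak lay further from the gene, at 6873325 to 6873661, where 337 bp reached a pileup of 40 (28.6 to 54.5). That pileup was above that of 89.7% of Jurkat-only peaks. On the far side of CD4, peaks were seen in RPMI-8402 only. The first, at 6930688 to 6931141, began 711 bp past the end of the gene and had a pileup of 21 (13 to 32.1). The next, at 6937654 to 6938138, had a pileup of 28 (18.6 to 40.5). Jurkat needed 17 and 18 fragments for a call against those backgrounds. These RPMI-8402 peaks were ordinary for their kind, as 46.8% and 70.0% of the 7847 RPMI-8402-only peaks had a lower pileup. In the RefSeq gene order MLF2, PTMS and LAG3, the last a checkpoint receptor related to CD4, come before CD4, and GPR162, P3H3 and GNB3 follow it. None of these peaks was assigned to a neighbour, because their hg19 bounds were not used here.

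Both lines shared 2 regions in the CD4 window, each more than 22 kb before the gene. The stronger was the highest of all 16 peaks in each line, at 6861951 to 6863007 in Jurkat, with a pileup of 97 (78.7 to 118), and at 6861907 to 6862922 in RPMI-8402, with 109 (89.5 to 131). Its summits lay 11 bp apart. The centred ratio of RPMI-8402 to Jurkat was 1.26 (0.953 to 1.68), and the peak lay 36.1 kb before CD4. At the weaker region, 6875496 to 6876042 in Jurkat and 6875665 to 6876267 in RPMI-8402, both lines had a pileup of 23 (14.6 to 34.5). Its summits lay 470 bp apart, farther than in 98.2% of all pairs, where the median was 67 bp. The overlap of 378 bp was 69.1% of the Jurkat and 62.7% of the RPMI-8402 peak. Equal pileups here thus came from peaks whose highest points differed.

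With 4 Jurkat and 5 RPMI-8402 peaks in 100 kb, the CD4 window held more peaks than its surroundings, where the 5 Mb on either side had 1.2 and 1.12 peaks per 100 kb. Summed over the window, the pileups came to 199 in Jurkat and 203 in RPMI-8402. The 83 pairs within those 5 Mb had a median of −0.01 on the centred log2 scale. The flanking peaks just outside the window were shared, with pileups of 130 and 345 in Jurkat and 88 and 204 in RPMI-8402.

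**Figure D2:**
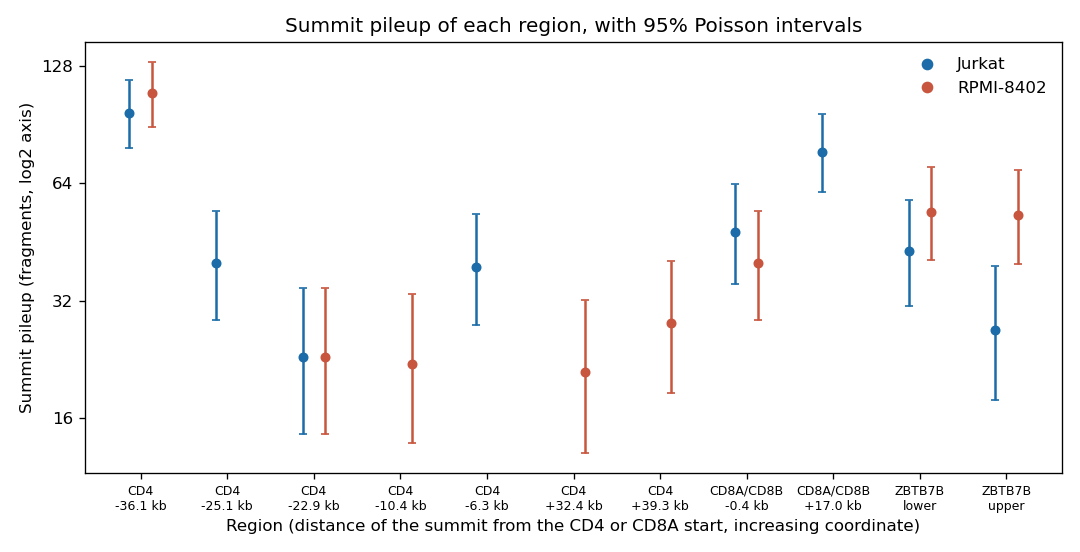
Summit pileup (fragments, log2 axis) of the 11 regions, with 95% Poisson intervals, by distance of the summit from the CD4 or CD8A start in kb. Points of 1 colour alone are regions called in 1 line. The intervals of the lines overlap at 4 of the 5 shared regions and do not at the upper ZBTB7B region, where they are 17.8 to 39.3 and 39.7 to 69.3.

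The ZBTB7B window held 2 peaks in each line, both shared. At the lower region the Jurkat peak, 154971732 to 154972504 of chromosome 1, had a pileup of 43 (31.1 to 57.9). The RPMI-8402 peak, 154971798 to 154972429, had 54 (40.6 to 70.5), a centred ratio of 1.41 (0.929 to 2.16). At the upper region the Jurkat peak, 154989887 to 154990227, had a pileup of 27 (17.8 to 39.3), and the RPMI-8402 peak, 154989777 to 154990484, had 53 (39.7 to 69.3). The centred ratio was 2.21 (1.36 to 3.65), the highest of the 5 pairs. The Jurkat peak there, 341 bp wide, lay wholly inside the RPMI-8402 peak of 708 bp. Deposited folds were 6.0 in Jurkat and 7.87 in RPMI-8402.

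RPMI-8402 thus had the higher pileup at both ZBTB7B regions, with an interval of the ratio above 1 at the upper one only. The 122 pairs within 5 Mb had a median of 0.12 (quartiles −0.17 and 0.50) on the centred log2 scale, and against that median the upper region kept a log2 ratio of 1.03 and the lower one 0.38. At the upper region the log2 ratio was 0.63 on the deposited fold, centred on the fold's own median over all pairs (−0.24), and 2-fold was not reached there. Without centring it was 0.97 for the pileups and 0.67 for pileups over the lowest background, scales that move every pair by 1 constant and put the median of all pairs at −0.17 and −0.47. The hg19 bounds of ZBTB7B were not used here, so the regions are given by position, and whether either lies in the gene is not stated. In the RefSeq order the gene sits between LENEP and DCST2. The nearest peaks outside this window were 14.3 kb (Jurkat) and 14.2 kb (RPMI-8402) below it, with pileups of 61 and 42. Above it lay a Jurkat-only peak of pileup 14 and, farther on, a RPMI-8402 peak of 74 that was shared.

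**Figure D3:**
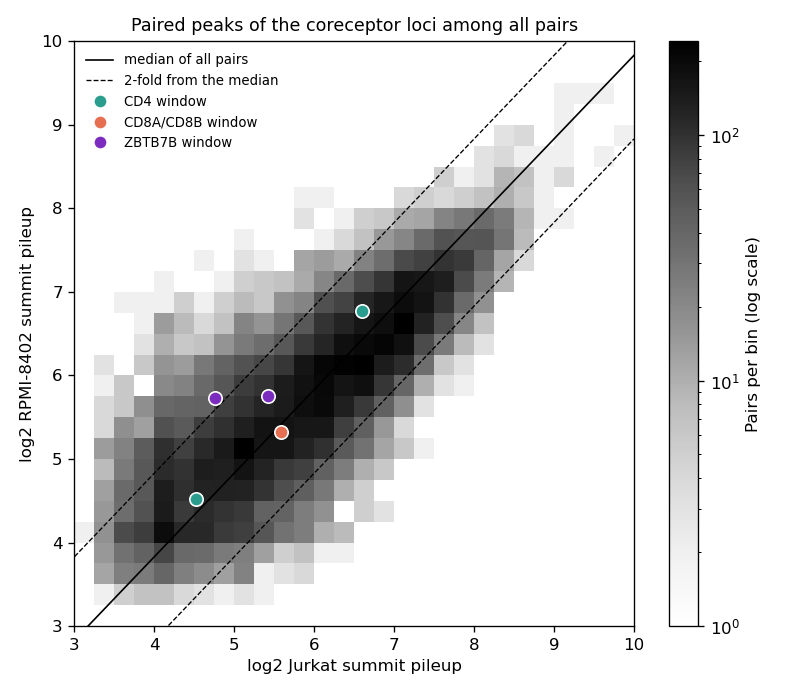
log2 summit pileup in RPMI-8402 against Jurkat for all 16494 pairs (grey, pairs per bin) with the 5 pairs of the coreceptor loci as coloured points. The solid line is the median of all pairs and the dashed lines lie 2-fold from it. The upper ZBTB7B pair, 27 against 53 fragments, is the only one of the 5 past a dashed line.

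Of the 5 pairs, 1 was at least 2-fold higher in RPMI-8402 and 0 in Jurkat. Over all pairs these calls made up 9.21% and 4.89%, so 1 of 5 in so few pairs is read only as a description. The median centred log2 ratio of the 5 pairs was 0.34, with a range from −0.09 at CD8A to 1.14 at the upper ZBTB7B region, against 0 for all pairs by construction. The interval of the ratio held 1 for 4 of the 5 pairs. Scaling by the lowest background shifts all pairs alike, so the log2 ratios of the CD4 pairs become −0.13 and −0.30 and that of CD8A −0.56, while their places relative to the other pairs stay as given. On the deposited fold, centred on its own median, the CD8A pair was at 0.24.

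The share of calls made in 1 line only was near that of the whole lists. Of 8 peaks, 3 had no partner in the other line in Jurkat, and likewise in RPMI-8402, a share of 37.5% (95% exact binomial interval 8.52 to 75.5%). Over the whole lists 32.6% of Jurkat and 31.9% of RPMI-8402 peaks were called without a partner. In these windows the Jurkat-only peaks had the higher pileups. The 3 Jurkat-only peaks had pileups of 39, 40 and 77, and the 3 RPMI-8402-only peaks had 21, 22 and 28, so these values did not overlap. Those of Jurkat lay above the list's median of 37, and those of RPMI-8402 below its median of 38. Line-only peaks were weaker than the whole lists, however. All Jurkat-only peaks together had a median of 19, well below 39, 40 and 77. For the RPMI-8402-only class that median was 21, so its 3 peaks here were not weak for their kind. Apart from the peak in CD8B, the line-only peaks were all in the CD4 window, and 0 were in the ZBTB7B window.

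**Figure D4:**
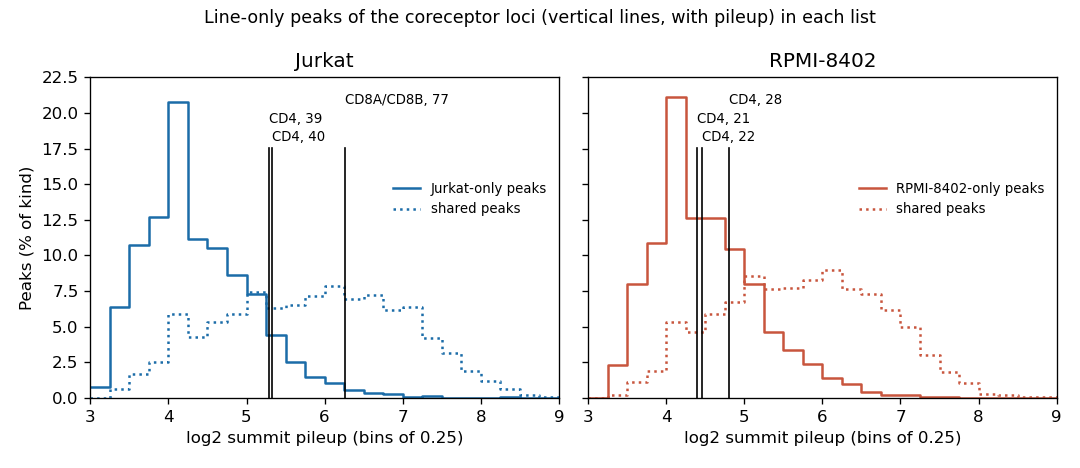
Share of peaks (% of kind) by log2 summit pileup in bins of 0.25, for peaks called in 1 line only (solid) and shared peaks (dotted) of each list. Vertical lines mark the line-only peaks of the coreceptor loci with their pileups, 39, 40 and 77 in Jurkat and 21, 22 and 28 in RPMI-8402.

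Most of the 16 peaks were of moderate strength. The median pileup was 41.5 (range 23 to 97) in Jurkat and 34.0 (range 21 to 109) in RPMI-8402, beside 37 and 38 over the whole lists, and 2 Jurkat and 4 RPMI-8402 peaks were below their list's median. The median width was 660 bp in Jurkat and 617.5 bp in RPMI-8402, beside 611 and 694 bp. The local background under the 16 peaks ran from 3.67 to 9.33 fragments per base in Jurkat and from 4.07 to 8.35 in RPMI-8402. The highest of these, 9.33, was under the Jurkat peak in CD8B.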

How the data were processed

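ATAC-seq peak lists of 1 Jurkat and 1 RPMI-8402 library were used, both in narrowPeak format. Per the submitters' processing notes, which give neither roles nor parameters, the tools were MACS2 2.1.1.2016030, Bowtie2, SAMtools and Picard and the build was hg19. Read filters: not given in the sources used here. The authors deposited, per peak and library, a score (10 times −log10 p without its decimals), a fold enrichment, and −log10 of a p-value and q-value. These are the authors' values, and library depth is not among them.

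Pileup and background were solved from fold and p, with 1 added to both pileup and background in the fold and p read as the Poisson upper tail. The solution was whole, within 0.01, in 100% of peaks of chromosomes 1 to 22, X and Y. Peaks sharing at least 1 bp were called overlapping. Ratios were centred on the median log2 ratio of one-to-one pairs (−0.17 before centring) and have exact conditional binomial intervals at 95%. Python 3.11.15, numpy 2.4.6, pandas 2.3.3 and scipy 1.17.1 were used. The solving step recovered 100% of pileups simulated for the 25189 Jurkat and 24603 RPMI-8402 peaks.

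All peaks in the windows are named. The windows, bounds of CD4, CD8A and CD8B, motifs and lists were chosen with earlier results of these data known. The strands of CD4 and CD8B are textbook knowledge. Other regulators of the coreceptors and marker loci were not analysed here, since no hg19 annotation was used.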

Additional observations from a re-analysis of the deposited data

How the results depend on the processing

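The numbers of peaks depended on the strength asked for. At −log10 q of at least 10, 7 of 8 Jurkat but 4 of 8 RPMI-8402 peaks were left, and among the 10000 strongest of each list 2 and 3. With the bounds of CD4, CD8A and CD8B widened by 10 kb in place of the windows, 3 of 6 peaks were left in each line, as the region searched is smaller. The share of RPMI-8402 peaks with a Jurkat partner rose to 100% at −log10 q of at least 10, since the RPMI-8402-only peaks were all weaker. It was 50% in each line at an overlap of 50% of both peaks. Pairs past 2-fold numbered 0 on the deposited fold centred on its own median, and 1 when centred on the pairs within 5 Mb. They also numbered 0 with unscaled pileups and over the lowest background, where all pairs shift by 1 constant and the 2-fold line does not, so this says nothing of a pair against the others. Of 36 alternative values, 26 stayed within their interval or 1.5 times their count and 10 did not. No paired analysis was possible because there was a single library for each line, and no replicate could be left out. The weakest called summits held 9 fragments (Jurkat) and 10 (RPMI-8402), and the part of depth in the missing calls was not tested.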
